A study of Homo sapiens with 18 samples.

Results

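The comparison set docosahexaenoic acid (DHA), a polyunsaturated fatty acid, against erastin, a small molecule that blocks cystine import, in MDA-MB-231 cells carrying a control hairpin. MDA-MB-231 is a human triple-negative breast cancer line with a mesenchymal character, and the control hairpin, sh-LUC, targets luciferase, which these cells do not carry; the labels give their genotype as WT. The 6 libraries were chosen by their labels alone: 3 of sh-LUC cells after 24 h with 200 µM DHA and 3 of sh-LUC cells after 24 h with 2.5 µM erastin, of 18 libraries in 6 groups in the series. The series also holds 3 sh-LUC libraries treated with the vehicle (0.5% DMSO with 0.5% ethanol), which entered no test here and are given only as levels, and the same 3 treatments of cells with a hairpin against IGFBP6, used at the end. All cells were plated at 800000 per well a day before treatment, and total RNA was sequenced after depletion of ribosomal RNA. The doses differ, so each difference below is one between these treatments and not between equal amounts of the compounds. Nothing in the labels says that the replicates were separate cultures, so p-values measure the spread between these libraries, which may be technical.

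Ferroptosis is a form of cell death driven by peroxidation of polyunsaturated membrane lipids in the presence of iron. Erastin blocks system xc-, the exchanger formed by SLC7A11 and SLC3A2 that brings in cystine for glutathione, and GPX4 uses glutathione to repair lipid peroxides. DHA enters the same process from the side of the lipid: its many double bonds make membranes easier to oxidise, while free polyunsaturated fatty acids also bind PPAR receptors and hold back the SREBP factors that drive lipid synthesis. Cells short of an amino acid translate ATF4, cells with misfolded protein activate HSF1, and cells with oxidised thiols release NRF2, each with its own set of target genes.

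The promoters of 6 genes are shown, a pair from each of 3 groups that the results below turn on, each chosen because it holds a known short motif, which not all members of its group hold. Each line is the 250 bases before the RefSeq transcription start (GRCh38.p14), written 5′ to 3′ on the strand of the gene. In HSPA6 (chr1:161524290-161524539, plus strand) and CHORDC1 (chr11:90223050-90223299, minus strand), a co-chaperone gene chosen after its values were seen, capitals mark the heat shock element, the binding pattern of HSF1 (GAA, NN, TTC, NN and GAA in a row, with N any base), read on either strand. In CHAC1 (chr15:40953221-40953470, plus strand) and ASNS (chr7:97872409-97872658, minus strand), capitals mark the ATF4 site TGATGNAA, read on either strand. In PLK1 (chr16:23678639-23678888, plus strand) and TOP2A (chr17:40417897-40418146, minus strand), capitals mark the CHR element TTTGAA, a motif of genes switched on late in the cell cycle, and the CCAAT box, each read on either strand.
HSPA6: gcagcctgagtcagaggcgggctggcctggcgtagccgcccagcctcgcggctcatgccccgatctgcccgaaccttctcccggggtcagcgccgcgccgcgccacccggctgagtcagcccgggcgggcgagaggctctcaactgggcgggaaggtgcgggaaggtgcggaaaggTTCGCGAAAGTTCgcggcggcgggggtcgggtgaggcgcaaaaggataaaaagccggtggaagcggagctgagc
CHORDC1: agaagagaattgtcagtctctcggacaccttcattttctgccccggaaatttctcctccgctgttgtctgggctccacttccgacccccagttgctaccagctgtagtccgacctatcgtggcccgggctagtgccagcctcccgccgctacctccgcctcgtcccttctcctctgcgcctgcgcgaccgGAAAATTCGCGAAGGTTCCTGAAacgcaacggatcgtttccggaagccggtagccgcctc
CHAC1: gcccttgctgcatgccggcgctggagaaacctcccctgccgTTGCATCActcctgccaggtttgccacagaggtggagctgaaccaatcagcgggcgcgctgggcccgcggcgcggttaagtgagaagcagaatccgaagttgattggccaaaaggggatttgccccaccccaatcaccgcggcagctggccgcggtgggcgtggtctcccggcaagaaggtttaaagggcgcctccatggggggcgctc
ASNS: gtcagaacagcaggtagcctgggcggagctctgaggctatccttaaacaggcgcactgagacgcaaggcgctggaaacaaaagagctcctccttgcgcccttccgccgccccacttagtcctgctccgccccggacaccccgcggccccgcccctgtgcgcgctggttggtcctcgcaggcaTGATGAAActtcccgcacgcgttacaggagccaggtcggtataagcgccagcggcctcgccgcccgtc
PLK1: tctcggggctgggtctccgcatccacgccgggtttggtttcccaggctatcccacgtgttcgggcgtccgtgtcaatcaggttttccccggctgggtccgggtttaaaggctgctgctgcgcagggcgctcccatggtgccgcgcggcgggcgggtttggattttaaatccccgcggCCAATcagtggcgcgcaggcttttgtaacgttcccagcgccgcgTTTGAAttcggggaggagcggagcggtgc
TOP2A: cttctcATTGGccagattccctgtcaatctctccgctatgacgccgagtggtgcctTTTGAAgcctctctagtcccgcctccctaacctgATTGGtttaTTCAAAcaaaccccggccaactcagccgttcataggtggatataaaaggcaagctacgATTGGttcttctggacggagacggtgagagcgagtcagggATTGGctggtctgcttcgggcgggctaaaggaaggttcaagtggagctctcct
The HSPA6 match lay 74 to 62 bases before the start, and in CHORDC1 3 overlapping matches covered bases 60 to 38 before it. The ATF4 site stood 209 to 202 bases before the start of CHAC1 and 68 to 61 before that of ASNS. PLK1 had its CHR element 29 to 24 bases before the start with a CCAAT box at 73 to 69, and TOP2A had 2 CHR elements and 4 CCAAT boxes. A match is a description of the letters and not a measured binding site.

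Counted over all 27303 promoters in the RefSeq table, the heat shock element was in 0.44%, the ATF4 site in 3.19%, the CHR element in 13.6% and the CCAAT box in 33%. Of genes at least 2-fold higher with erastin that had a promoter in the table (406), 1.97% held the heat shock element and 4.93% the ATF4 site, against 0.341% and 1.49% of the 10863 tested genes with a promoter. Among the 393 promoters of genes at least 2-fold higher with DHA, 18.3% held the CHR element and 45% the CCAAT box. The shares of those tested were 8.63% and 35.1%. On the erastin side the CHR element was in 11.8% of promoters and the CCAAT box in 36%. On the DHA side the ATF4 site was in 2.29% and the heat shock element in 0.254%. In the list of mitosis genes the CHR element was in 13 of 22 promoters and the CCAAT box in 18 of 22. The CCAAT box was also in 13 of 20 promoters of the integrated stress response list and 15 of 19 of the cholesterol list. Heat shock elements were in 3 of 19 promoters of the heat shock list, those of HSPA8, CHORDC1 and HSPA6 (the first named for its match alone), and ATF4 sites in 3 of 20 of the integrated stress response list, those of ASNS, CHAC1 and ATF3. Other motifs were counted too, and these shares were not tested.

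The compounds differed across much of the transcriptome. Of 15161 genes tested with edgeR's quasi-likelihood test, 7681 (50.7%) passed an adjusted p of 0.05, 3851 (25.4%) higher with DHA and 3830 (25.3%) higher with erastin, and 8613 (56.8%) had groups of 3 libraries that did not overlap. Counts of called genes in the lists below stand against these shares, 25.4% higher with DHA and 25.3% higher with erastin. Most differences were small: the median absolute log2 difference of the called genes was 0.502. Differences of at least 2-fold were fewer, 578 genes (3.81%) higher with DHA and 781 (5.15%) higher with erastin. The largest ones lay on the erastin side, with 52 genes at least 8-fold higher against 3 with DHA. Scaling by library size alone, without the TMM factors that make most genes equal, raised the median of all genes from 0.003 to 0.171 and gave 5987 genes higher with DHA and 2285 higher with erastin, so 72.4% of calls lay on the DHA side instead of 50.1%. Differences below are relative to the median gene, as DHA minus erastin on the log2 scale, and levels are counts scaled by TMM and expressed as CPM, that is per 1000000 counts of the library.

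**Figure D1:**
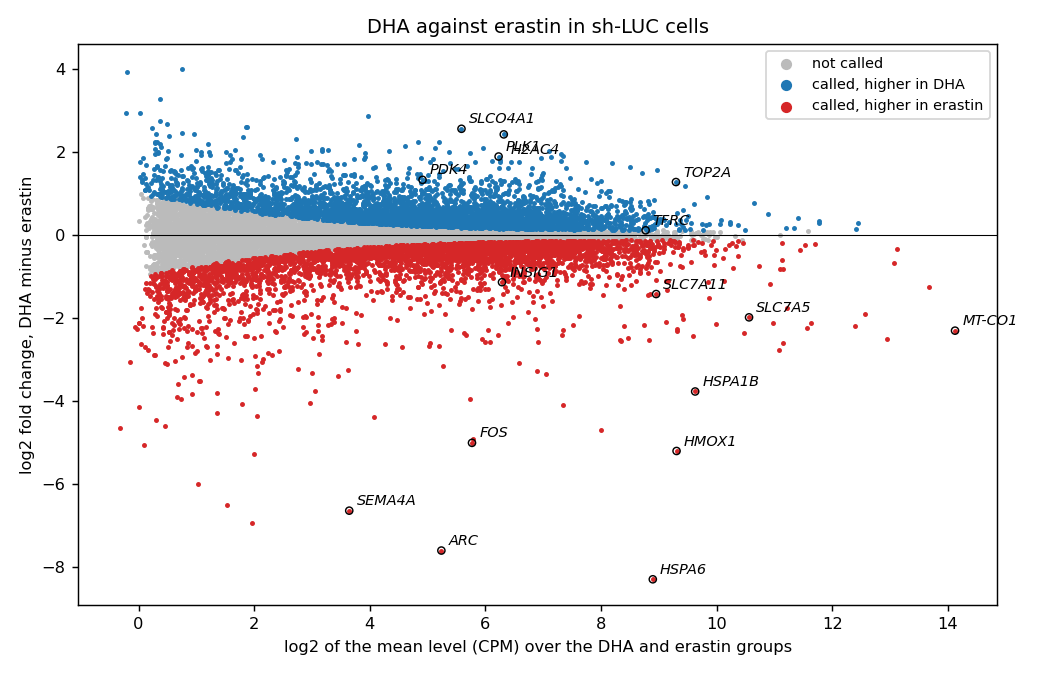
Mean level over the 6 libraries (x axis, log2 CPM) against the log2 difference DHA minus erastin (y axis) for the 15161 tested genes, each a point. The 46 genes at least 4-fold higher with DHA and the 193 at least 4-fold higher with erastin form the outer edges, and the erastin edge reaches further.

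The vehicle libraries place each difference against untreated levels. Of the 781 genes at least 2-fold higher with erastin, vehicle levels overlapped those with DHA only in 463 (59.3%), lay under both treatments in 107 (13.7%) and lay between them in 105 (13.4%). Of the 578 genes at least 2-fold higher with DHA, vehicle levels also overlapped those with DHA only in 301 (52.1%), were between the treatments in 116 (20.1%) and over both in 52. In both directions the most frequent pattern was thus a vehicle range that overlapped DHA and not erastin, a description that was not tested.

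Libraries held between 5666029 and 7977429 counts for the 6 compared, and 2708143 to 4043424 for the vehicle. Erastin replicate 3 stood apart from the other 2 erastin libraries: their chi-square per degree of freedom was 1.586 with each other, and 4.645 and 6.346 with replicate 3, where DHA pairs had 1.96 to 2.65. Without it 7177 genes were called. As markers of the line, all 10 mesenchymal genes listed for it had counts in every group. Of these 10, 4 were called higher with DHA, among them LGALS1 (0.70), and 3 higher with erastin, among them EGFR (−0.64). VIM (vimentin), 1 of the 3 not called, averaged 901 CPM with DHA and 875 with erastin (edgeR adjusted p = 0.512). ESR1 and PGR, the hormone receptors that the line lacks, were too low to be tested. Summed luminal markers stood at 1290 to 1340 CPM with DHA, 1290 to 1320 with erastin and 1740 to 1750 with vehicle. Between the compounds 3 of 11 tested were called each way. Markers of other cell types were low: summed leukocyte markers stood at 2.7 to 3.18 CPM with DHA, 2.44 to 4.44 with erastin and 5.15 to 6.09 with vehicle, and HBB and MS4A1 were among those at 0 in all 3. Summed fibroblast and endothelial markers stood at 45.2 to 54 CPM with DHA, 33.4 to 39 with erastin and 77.3 to 87.4 with vehicle, with CDH5 at 0. PECAM1 and COL1A1 of that list were called higher with DHA, and the part of such cells in the results was not tested. Bulk RNA cannot tell fewer cells of a type from less RNA per cell.

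Heat shock genes held some of the largest single differences. Of 21 tested genes of the heat shock and HSF1 target list, 20 were higher with erastin and none with DHA, with a median of −1.11 against 0.003 for all genes. Only HSF1 itself was not called. HSPA6, an inducible HSP70 that most cells barely express (ENSG00000173110.8, chr1:161524540-161526910), was at 1.51, 0.94 and 6.63 CPM with DHA and at 989, 1009 and 846 CPM with erastin. Vehicle libraries were at 1.79, 0.909 and 0.481 CPM, so only the erastin libraries were high. The log2 difference was −8.30 (SE 0.37, edgeR adjusted p = 6.1e-05), and −9.63 without DHA replicate 3, the highest of the DHA libraries.

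HSPA1A and HSPA1B, the near-identical genes of the main inducible HSP70, share reads and their split is uncertain. HSPA1A read 16.1, 17.1 and 23.9 CPM with DHA and 528, 530.2 and 421 with erastin, a log2 difference of −4.69 (SE 0.16, edgeR adjusted p = 6.5e-08). HSPA1B read 106, 99.7 and 118 CPM with DHA and 1578, 1617 and 1221 with erastin, a difference of −3.77 (SE 0.14, edgeR adjusted p = 1.2e-06). No erastin library of either gene came near a DHA library, and vehicle levels, at 12.7 to 14 CPM and 57.3 to 61.3 CPM, lay under those with DHA. DNAJB1, the HSP40 partner of HSP70, was at 218, 202 and 235 CPM with DHA and at 1138, 1078 and 927 with erastin, with vehicle at 181 to 217 CPM. Its log2 difference was −2.26 (SE 0.06, edgeR adjusted p = 4.3e-29). HSP90AA1, the inducible HSP90, stood at 1058, 1037 and 1145 CPM with DHA and 3838, 3933 and 3204 with erastin (log2 difference −1.76, SE 0.06, edgeR adjusted p = 7.4e-28). CHORDC1, whose promoter is shown above, was at 59.2 to 76 CPM with DHA and 252 to 337 CPM with erastin (log2 difference −2.16, SE 0.13, edgeR adjusted p = 3.8e-06). For 16 of the 20 called genes the vehicle range overlapped DHA only, and erastin replicate 3 was the lowest erastin library for each gene named here.

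**Figure D2:**
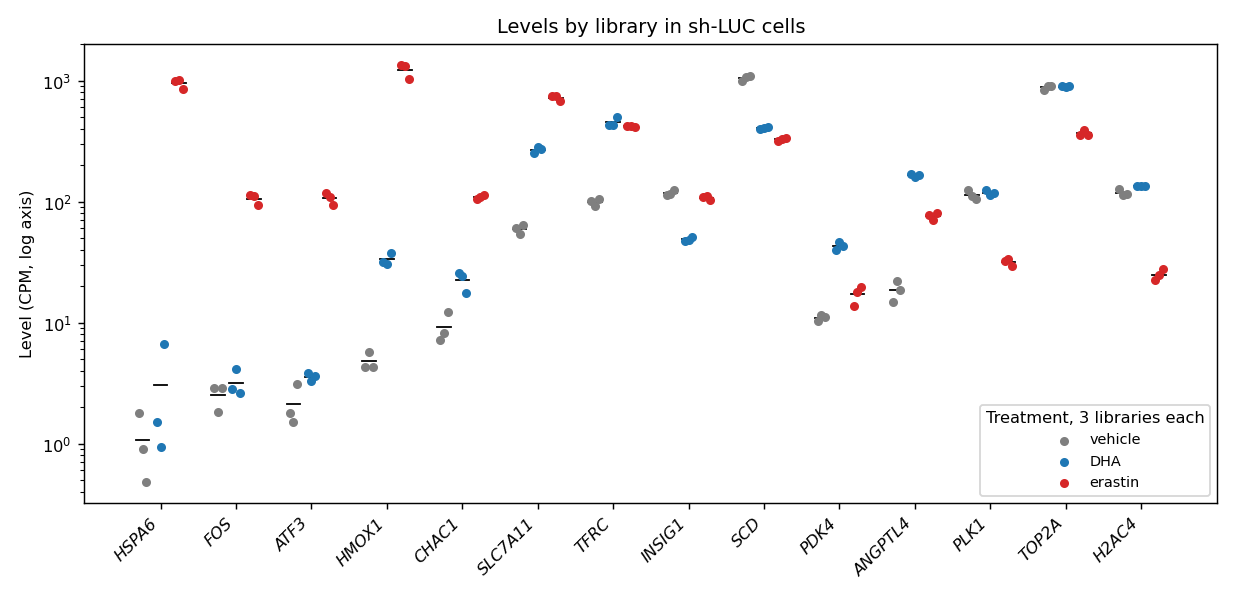
Level in CPM (log axis) of 14 genes in each sh-LUC library, 3 points per treatment for vehicle, DHA and erastin. HSPA6, FOS and ATF3 are high in the 3 erastin libraries alone, and HMOX1 is highest there and above vehicle with DHA as well. PLK1, TOP2A and H2AC4 are low in the erastin libraries alone, and TFRC is high under both compounds.

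Immediate early genes, transcription factors and phosphatases that cells switch on within minutes of a signal, also stood on the erastin side at 24 h. Of 24 tested, 19 were higher with erastin and 4 with DHA, with a median of −1.24. FOS, a subunit of the AP-1 factor, was at 2.85, 4.11 and 2.62 CPM with DHA and at 112, 110.5 and 94.1 with erastin, with vehicle at 1.82 to 2.89 CPM. Its log2 difference was −5.01 (SE 0.12, edgeR adjusted p = 3.6e-38), and no erastin library came near a DHA library. EGR1, a zinc finger factor of growth signals, was at 19.3, 14.8 and 20.3 CPM with DHA and 327, 331 and 263 with erastin (log2 difference −4.10, SE 0.11, edgeR adjusted p = 4.8e-18). ARC had 0, 0.235 and 0.829 CPM with DHA and 80.2, 75.2 and 69.9 with erastin, a log2 difference of −7.60 (SE 0.20, edgeR adjusted p = 7.5e-37) that rests on few DHA reads and was −8.92 without DHA replicate 3. NR4A1, an orphan nuclear receptor, differed by −4.39 (SE 0.18) and DUSP1, a phosphatase that turns off MAP kinases, by −3.35 (SE 0.07), with edgeR adjusted p = 3.8e-29 and 4.5e-41. The 4 members on the other side included DUSP4 and IER3. DUSP4 was at 430.3, 404 and 398 CPM with DHA and 308, 321 and 334 with erastin, a modest difference of 0.36 (SE 0.05, edgeR adjusted p = 7.9e-08).

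Further genes with no list of their own followed the same pattern. SEMA4A, a semaphorin, read 0.336, 0.117 and 0.276 CPM with DHA and 26.9, 24.1 and 23.2 CPM with erastin, a log2 difference of −6.64 (SE 0.27, edgeR adjusted p = 4.4e-29) against very few DHA reads. DLL4, a Notch ligand, was at 1.18, 0.47 and 1.1 CPM with DHA and 13.9, 16.3 and 13.9 with erastin (log2 difference −4.04, SE 0.25, edgeR adjusted p = 4e-21). TNFSF9, the ligand of the co-stimulatory receptor 4-1BB, was at 6.38, 5.05 and 8.01 CPM with DHA and 110.3, 98.5 and 89.6 with erastin (log2 difference −3.95, SE 0.11, edgeR adjusted p = 6.7e-35). In all 3 genes vehicle levels were low as with DHA.

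Genes of the integrated stress response were above vehicle with both compounds and higher with erastin. Of 24 tested ATF4 and CHOP target genes 23 were higher with erastin and none with DHA, with a median of −1.22, and in 20 of the 24 the vehicle lay under both treatments. The transcript of ATF4, the factor itself, was at 153, 152 and 158 CPM with vehicle, at 227, 227 and 212 with DHA and at 368, 355 and 353 with erastin. The difference between the compounds was −0.69 (SE 0.05, edgeR adjusted p = 8.5e-17), with the 3 treatments in separate steps. CHAC1, an enzyme that degrades glutathione, was at 25.5, 24.3 and 17.4 CPM with DHA and 106, 109 and 113 with erastin, with vehicle at 7.17 to 12.3 (log2 difference −2.29, SE 0.09, edgeR adjusted p = 1.3e-29). ATF3, a partner factor that is also an immediate early gene, was at 3.86, 3.29 and 3.59 CPM with DHA and 117, 109 and 94.7 with erastin (log2 difference −4.91, SE 0.12, edgeR adjusted p = 1.4e-38). Its DHA libraries were close to the vehicle range of 1.51 to 3.13 CPM, unlike those of CHAC1.

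Other members of the response showed the same order. ASNS, the asparagine synthetase, was low throughout, with 4.36, 6.58 and 4.7 CPM with DHA and 16.6, 17.4 and 19.1 with erastin (log2 difference −1.73, SE 0.16, edgeR adjusted p = 2.8e-14). TRIB3, a pseudokinase that damps the response, was at 42.6, 46.7 and 39.8 CPM with DHA and 124, 105 and 116 with erastin (log2 difference −1.41, SE 0.07, edgeR adjusted p = 1e-23). SESN2 (−2.59), PPP1R15A, the phosphatase subunit that restores translation (−2.53), and GDF15, a secreted stress cytokine (−2.02), were called in the same direction. The weakest of the key genes here was DDIT3, which encodes CHOP: its 11.4, 9.16 and 9.53 CPM with DHA and 12.6, 16 and 13 with erastin gave a difference of −0.48 (SE 0.14, edgeR adjusted p = 0.004), lost without erastin replicate 2 (adjusted p = 0.0667), with scaling by library size alone (−0.31, adjusted p = 0.0616) and against a 1.2-fold difference (adjusted p = 0.0666). Of 20 cytosolic aminoacyl-tRNA synthetases, which load amino acids on tRNA, 12 were higher with erastin and 2 with DHA, with a median of −0.46. GARS1, for glycine, was at 255, 259 and 230.2 CPM with DHA and 533, 529.8 and 528 with erastin (log2 difference −1.09, SE 0.05, edgeR adjusted p = 3e-25), while QARS1, for glutamine, was higher with DHA by 0.42 (SE 0.06, edgeR adjusted p = 1.5e-08).

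Amino acid carriers, among them the target of erastin, were higher with erastin as well. Of 15 tested transporters 12 were higher with erastin and none with DHA, with a median of −0.74. SLC7A11, the cystine carrier of system xc- (ENSG00000151012.13, chr4:138164097-138242349), was at 60.2, 53.6 and 63.8 CPM with vehicle, 252, 284 and 271 with DHA and 741, 746 and 675 with erastin. The difference was −1.42 (SE 0.05, edgeR adjusted p = 4e-30), with DHA between the other groups and no overlap. SLC3A2, its partner chain, took the same steps, at 146 to 167 CPM with vehicle, 239.7 to 265 with DHA and 647 to 694 with erastin (log2 difference −1.42, SE 0.05, edgeR adjusted p = 1.3e-30). SLC7A5, the leucine carrier that uses the same partner, did not: at 652, 589.7 and 586 CPM with DHA it was within the vehicle range of 572 to 629 or just over it, against 2495, 2312 and 2410.0 with erastin (log2 difference −1.98, SE 0.05, edgeR adjusted p = 3.5e-37).

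Among NRF2 targets the difference was carried by some genes and not by the list. Of 25 tested, 11 were higher with erastin and 4 with DHA, with a median of −0.06, and scaling by library size alone gave 11 and 10. HMOX1, heme oxygenase, which frees iron from heme (ENSG00000100292.18, chr22:35380361-35394214), was at 4.3, 5.76 and 4.33 CPM with vehicle, 31.9, 30.8 and 37.6 with DHA and 1351, 1310.0 and 1032 with erastin. The log2 difference was −5.20 (SE 0.14, edgeR adjusted p = 2.9e-09): DHA libraries were above vehicle and erastin libraries far above both. The subunits of the enzyme that makes the glutathione precursor differed less. GCLC was at 47.3, 37.2 and 45.3 CPM with DHA and 142, 137 and 117 with erastin, and GCLM at 222, 207 and 231 CPM and 437, 439.9 and 436, with log2 differences of −1.62 (SE 0.08) and −0.995 (SE 0.05) and edgeR adjusted p = 1.5e-23 and 2.5e-23. TXNRD1, thioredoxin reductase, differed by −1.10 (SE 0.05, edgeR adjusted p = 1.4e-25) and NQO1, a quinone reductase, by −0.71 (SE 0.06, edgeR adjusted p = 5e-15). NQO1 stood at 386 to 472 CPM with vehicle, 669 to 839 with DHA and 1194 to 1281 with erastin. CBR1, a carbonyl reductase, went the other way, at 33.4, 33 and 37 CPM with DHA and 18.1, 19.7 and 20.4 with erastin (log2 difference 0.83, SE 0.10, edgeR adjusted p = 2.5e-10). Of 27 glutathione, thioredoxin and peroxide enzymes 9 were higher with erastin and 7 with DHA (median −0.01), near the 25.3% and 25.4% of all tested genes. Scaling by library size alone gave 6 and 12. SOD2, the mitochondrial superoxide dismutase, differed by −0.72 (SE 0.06, edgeR adjusted p = 2.9e-15), and GPX3, a secreted peroxidase, by 0.62 (SE 0.10, edgeR adjusted p = 5.7e-07).

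The list of ferroptosis drivers and suppressors did not separate the compounds as a whole. Of 32 tested genes 13 were higher with erastin and 6 with DHA, with a median of −0.09, and 10 and 10 with scaling by library size alone. PTGS2, cyclooxygenase 2, often used as a marker of the process, was the member furthest apart: 20.8, 22 and 23.6 CPM with DHA, just over the vehicle range of 18.2 to 20.7, and 244, 194 and 207 with erastin (log2 difference −3.27, SE 0.08, edgeR adjusted p = 2.7e-36). GPX4, the lipid peroxide repair enzyme, was at 183 to 189 CPM with vehicle, 125 to 136 with DHA and 144 to 159 with erastin. Its difference of −0.25 (SE 0.06, edgeR adjusted p = 0.00048) was −0.08 and not called (adjusted p = 0.291) with scaling by library size alone. ACSL4, which loads polyunsaturated fatty acids into membranes, was at 146, 150.3 and 165 CPM with DHA and 195, 190.3 and 202 with erastin (log2 difference −0.35, SE 0.06, edgeR adjusted p = 1.2e-06). SAT1, an enzyme of polyamine breakdown, read 56.2, 50.4 and 52.9 CPM with DHA, under the vehicle range of 70 to 88.1, and 81.4, 80.3 and 79 with erastin, within it (log2 difference −0.60, SE 0.07, edgeR adjusted p = 2.7e-10). AIFM2, the suppressor known as FSP1, read 45.5, 45.6 and 45.2 CPM with DHA and 43.2, 44.2 and 43.3 with erastin. Its difference of 0.06 had a 95% interval of −0.10 to 0.22 (edgeR adjusted p = 0.56), and with scaling by library size alone it was 0.23 and called (adjusted p = 0.0156).

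Iron genes likewise went both ways, with 5 of 24 higher with erastin and 8 with DHA (median 0.08). This was near the shares of all tested genes, 25.3% higher with erastin and 25.4% with DHA. Scaling by library size alone gave 4 and 15. The ferritin chains, which store iron, were higher with erastin. FTH1, the heavy chain, was at 166 to 184 CPM with vehicle, 389.5, 349 and 318 with DHA and 834, 788 and 655 with erastin (log2 difference −1.11, SE 0.10, edgeR adjusted p = 7.8e-06), and FTL, the light chain, differed by −0.81 (SE 0.05, edgeR adjusted p = 1.1e-19). TFRC, the transferrin receptor that brings iron in, was far above vehicle under both: 91.5 to 105 CPM with vehicle, 433, 432 and 497 with DHA and 422, 424 and 410.0 with erastin. Its difference of 0.12 had an unadjusted 95% interval of 0.01 to 0.22 and was not called (edgeR adjusted p = 0.0638), though it was with scaling by library size alone (0.28) and without DHA replicate 1 or 2 (adjusted p = 0.0334 and 0.0199).

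Endoplasmic reticulum chaperone and degradation genes went both ways. Of 25 tested 15 were higher with erastin and 5 with DHA, with a median of −0.17, and with scaling by library size alone 5 and 8. ERN1, the stress sensor IRE1, was at 31.4, 33.8 and 33.6 CPM with DHA and 106, 90.6 and 103 with erastin (log2 difference −1.59, SE 0.08, edgeR adjusted p = 2e-25). XBP1, the factor whose mRNA that sensor splices, was at 116, 111 and 108 CPM with DHA and 227, 222 and 225 with erastin (log2 difference −1.01, SE 0.06, edgeR adjusted p = 4.5e-22). HSPA5, the chaperone BiP, differed less, by −0.41 (SE 0.05, edgeR adjusted p = 3.8e-10), and MANF, a secreted stress factor, was slightly higher with DHA, by 0.25 (SE 0.08, edgeR adjusted p = 0.0075). Autophagy and lysosome genes had 15 of 29 higher with erastin and 6 with DHA (median −0.22). Among them MAP1LC3B, the autophagosome marker LC3B, read 77.7, 82.6 and 88.6 CPM with DHA and 188, 171 and 169.6 with erastin (log2 difference −1.08, SE 0.06, edgeR adjusted p = 8e-22), and SQSTM1, the cargo receptor p62, differed by −0.91 (SE 0.06, edgeR adjusted p = 8.1e-21). Proteasome subunits were not among the genes higher with erastin: 12 of 31 were higher with DHA and none with erastin (median 0.15), among them PSMD2 at 588, 548 and 562 CPM against 382, 390.0 and 390.2 (log2 difference 0.55, SE 0.05, edgeR adjusted p = 8.9e-14).

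Genes of growth arrest and inflammation leaned to erastin. Of 21 tested p53 targets 10 were higher with erastin and 3 with DHA, with a median of −0.09; MDA-MB-231 carries mutant p53. CDKN1A, the cell cycle inhibitor p21, was at 68.3, 68.3 and 77.5 CPM with DHA and 234, 212 and 197 with erastin, with vehicle at 73.4 to 81.5 (log2 difference −1.58, SE 0.07, edgeR adjusted p = 7.4e-28). BTG2, an antiproliferative factor, was at 2.18, 1.53 and 2.07 CPM with DHA and 20, 19.9 and 20.2 with erastin (log2 difference −3.40, SE 0.19, edgeR adjusted p = 4.2e-23). Both were at vehicle level with DHA. Of 20 NF-kB targets and cytokines 11 were higher with erastin and 3 with DHA (median −0.41). CXCL8, the neutrophil chemokine interleukin 8, read 6.88, 4.7 and 7.74 CPM with DHA and 40.9, 40.1 and 41.2 with erastin (log2 difference −2.68, SE 0.13, edgeR adjusted p = 3.4e-26). BCL3, a nuclear partner of NF-kB, went the other way, at 53.2 to 63.1 CPM with vehicle, 23.7 to 29.4 with DHA and 7.84 to 8.41 with erastin (log2 difference 1.64, SE 0.13, edgeR adjusted p = 1.3e-16). Apoptosis regulators had 9 of 22 higher with erastin and 4 with DHA (median −0.06; 6 and 8 with scaling by library size alone), with BCL2L11, the death factor BIM, at 21.6, 17.1 and 19.3 CPM with DHA and 37.8, 37.8 and 37.7 with erastin (log2 difference −0.98, SE 0.10, edgeR adjusted p = 1.1e-12). Metallothioneins and zinc transport genes had 5 of 7 higher with erastin and none with DHA (median −0.87). MT2A read 344, 337 and 265 CPM with DHA, under the vehicle range of 412 to 423, and 725, 645 and 644 with erastin, over it (log2 difference −1.09, SE 0.09, edgeR adjusted p = 3.1e-07); metallothionein copies are alike and may share reads.

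The machinery that makes ribosomes was on the erastin side, while ribosomal proteins were hardly apart. Of 27 ribosome biogenesis genes 23 were higher with erastin and 1 with DHA (median −0.41). DDX21, a nucleolar helicase, was at 243, 215 and 277 CPM with DHA and 475, 466 and 479 with erastin (log2 difference −0.95, SE 0.06, edgeR adjusted p = 4.4e-18). RRP12 was at 64.8, 53.4 and 72 CPM with DHA and 140.2, 127 and 146 with erastin (log2 difference −1.13, SE 0.08, edgeR adjusted p = 5.8e-17), and the 1 exception, FBL, the methyltransferase fibrillarin, differed by 0.28 (SE 0.06, edgeR adjusted p = 0.00026). Of 31 cytosolic ribosomal proteins 13 were higher with erastin and 2 with DHA (median −0.09), which became 2 and 9 with scaling by library size alone, and none passed a test against a 1.2-fold difference; processed pseudogenes of these genes may share reads.

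Messenger RNAs of the mitochondrial genome, which code for subunits of the respiratory chain, lay under vehicle with DHA and over it with erastin. All 13 were higher with erastin, with a median difference of −2.42, and in all 13 the vehicle lay between. The median level of the 13 was 1304, 1486 and 1266 CPM with vehicle, 834.5, 719.5 and 717.3 with DHA and 4822, 4263 and 2605 with erastin. The groups did not overlap, and erastin replicate 3 was the lowest of its group. MT-CO1, subunit I of cytochrome oxidase, was at 6217, 6130.0 and 5653 CPM with DHA and 34450.0, 30880.0 and 23460.0 with erastin (log2 difference −2.30, SE 0.17, edgeR adjusted p = 0.00041). All genes of the mitochondrial genome took 2.83% to 3.31% of counts with vehicle, 1.66% to 2.09% with DHA and 9.54%, 8.93% and 6.3% with erastin; whether this share moved other values was tested only by leaving those genes out before scaling, which gave 7649 calls. Nuclear genes of the same complexes went the other way by little: 18 of 31 were higher with DHA and none with erastin (median 0.22). UQCRC1, a core subunit of complex III, was at 179, 183 and 179 CPM with DHA and 123, 121 and 127 with erastin (log2 difference 0.55, SE 0.06, edgeR adjusted p = 6.5e-12).

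**Figure D3:**
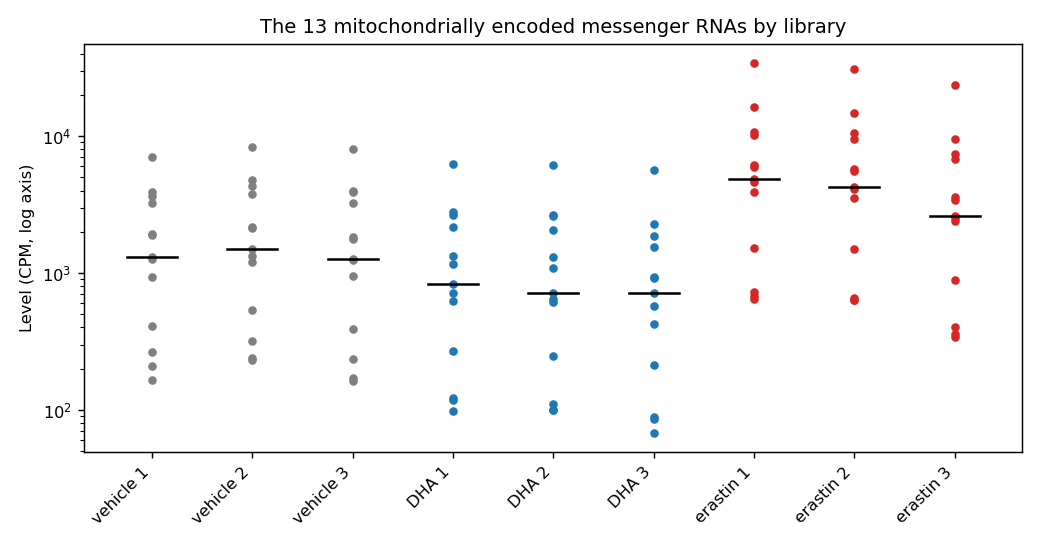
Level in CPM (log axis) of the 13 mitochondrially encoded messenger RNAs in each of the 9 sh-LUC libraries, 1 point per gene, with a bar at the median of the library. Medians run from 717.3 to 834.5 with DHA, from 1266 to 1486 with vehicle and from 2605 to 4822 with erastin.

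RNAs that are not translated made up more of the erastin side. Of the 781 genes at least 2-fold higher with erastin 465 (59.5%) were annotated as protein-coding, against 442 of the 578 (76.5%) higher with DHA and 81.7% of all tested. Small nucleolar RNA genes were few among those tested (24), and 13 of them were at least 2-fold higher with erastin. Of a list of 9 nuclear-retained or structural RNAs 5 were tested, and all 5 were higher with erastin (median −1.24), MALAT1 by little and KCNQ1OT1 by much. KCNQ1OT1, an imprinted nuclear RNA, was at 118, 124 and 120.3 CPM with DHA and 618, 555 and 490.0 with erastin (log2 difference −2.20, SE 0.06, edgeR adjusted p = 9.6e-33), and MALAT1 differed by −0.34 (SE 0.05, edgeR adjusted p = 6.2e-08). RNA quality has no direct measure in the counts, and its part in these values was not tested.

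On the DHA side, genes of mitosis stood out by their number and size. Of 26 tested 24 were higher with DHA and none with erastin, with a median of 1.17, and 19 were at least 2-fold higher; BUB3 and NUSAP1 were not called. PLK1, the polo-like kinase that drives entry into mitosis (ENSG00000166851.15, chr16:23677656-23690367), was at 126, 112 and 106 CPM with vehicle, 124, 112 and 118 with DHA and 32.4, 33.4 and 29.3 with erastin. The log2 difference was 1.90 (SE 0.08, edgeR adjusted p = 2e-29), and only the erastin libraries left the vehicle range. TOP2A, the topoisomerase that untangles chromosomes, was at 841 to 907 CPM with vehicle, 895, 878 and 895 with DHA and 353, 388 and 357 with erastin (log2 difference 1.28, SE 0.05, edgeR adjusted p = 5.2e-29). KIF20A, a motor of cytokinesis, was at 142, 116 and 125 CPM with DHA, under the vehicle range of 161 to 173, and at 42.8, 41.5 and 38.9 with erastin (log2 difference 1.63, SE 0.07, edgeR adjusted p = 3.4e-26). AURKA, the spindle pole kinase, differed by 1.46 (SE 0.06, edgeR adjusted p = 2.3e-27), and BIRC5, survivin, by 0.97 (SE 0.07, edgeR adjusted p = 7.2e-19).

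Replication-dependent histone genes, which are transcribed in S phase and mostly lack poly(A) tails, were further apart still. Of 17 tested 16 were higher with DHA and all 16 by at least 2-fold, with a median of 1.61; H4C9 was not called. H2AC4 (ENSG00000278463.2, chr6:26033176-26033568) was at 126, 113 and 115 CPM with vehicle, 134, 135 and 134 with DHA and 22.4, 24.7 and 27.6 with erastin (log2 difference 2.43, SE 0.08, edgeR adjusted p = 6.3e-34). H3C2 was at 434 to 443 CPM with vehicle, 560.0, 527 and 554 with DHA and 168, 176 and 180.0 with erastin (log2 difference 1.65, SE 0.05, edgeR adjusted p = 2.7e-33), and H2BC21 was at 258, 256 and 254 CPM with DHA and 63.6, 71.6 and 67.6 with erastin (log2 difference 1.92, SE 0.06, edgeR adjusted p = 9.5e-34). Levels with DHA were thus at or above vehicle in all 3, and with erastin under it; histone copies are near-identical and may share reads. DNA replication genes were less uniform, with 21 of 33 higher with DHA and 5 with erastin (median 0.25). GINS1, of the replicative helicase, read 72, 69.2 and 72.4 CPM with DHA and 37.9, 37.2 and 34.1 with erastin (log2 difference 0.97, SE 0.08, edgeR adjusted p = 2.6e-16), and PCNA, the sliding clamp, differed by 0.50 (SE 0.06, edgeR adjusted p = 1.5e-10). MCM6, a helicase subunit loaded in G1, was the other way at 117, 114 and 118 CPM with DHA and 149.9, 169.6 and 168 with erastin (log2 difference −0.48, SE 0.06, edgeR adjusted p = 9.7e-10).

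**Figure D4:**
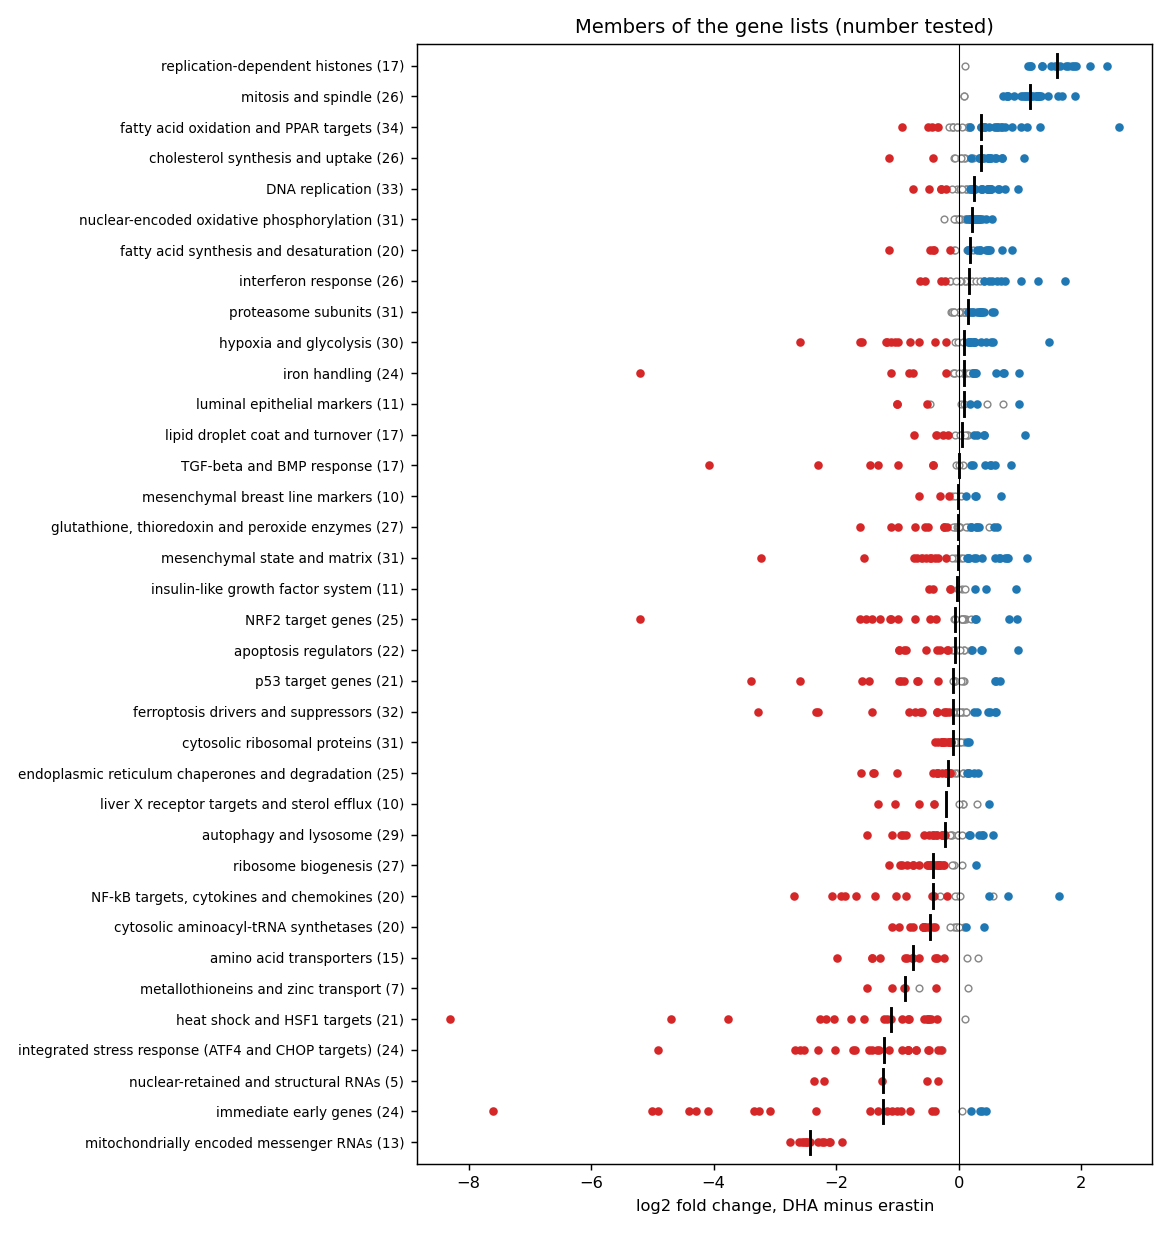
Log2 difference DHA minus erastin (x axis) of each tested member of the gene lists with at least 5 tested genes (y axis, number tested in parentheses), filled where called, with a black bar at the list's median. Medians run from −2.42 for the mitochondrially encoded mRNAs to 1.61 for the histones, and the median of all genes is 0.003.

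Genes of lipid use included several at which the DHA libraries lay outside the vehicle range. Of 34 fatty acid oxidation genes and PPAR targets 18 were higher with DHA and 4 with erastin, with a median of 0.37. PDK4, a kinase that turns off pyruvate oxidation and a PPAR target (ENSG00000004799.8, chr7:95583499-95596491), was at 10.4, 11.5 and 11.1 CPM with vehicle, 39.9, 46.2 and 43.2 with DHA and 13.6, 17.9 and 19.7 with erastin. Its difference was 1.33 (SE 0.10, edgeR adjusted p = 1.4e-16), with the DHA libraries alone far from the vehicle. ANGPTL4, a secreted inhibitor of lipoprotein lipase, was above vehicle with both, at 14.7 to 22.1 CPM with vehicle, 168, 161 and 166 with DHA and 77.4, 70.5 and 79.9 with erastin (log2 difference 1.12, SE 0.06, edgeR adjusted p = 1.7e-22). IMPA2, an inositol phosphatase, was at 19.7 to 24.7 CPM with vehicle, 42.6, 42.4 and 38.3 with DHA and 20.4, 22.5 and 17.9 with erastin (log2 difference 1.02, SE 0.10, edgeR adjusted p = 1.7e-13). CPT1A, the gate for fatty acids into mitochondria, differed by 0.37 (SE 0.06, edgeR adjusted p = 2.3e-07), at 120.0 to 126 CPM with vehicle, 228 to 259 with DHA and 186 to 197 with erastin. PLIN2, the coat protein of lipid droplets, was at 36.3 to 40.1 CPM with vehicle, 154, 141 and 154 with DHA and 185, 180.1 and 169.5 with erastin. Its difference of −0.25 (SE 0.06, edgeR adjusted p = 0.00027) was −0.08 (adjusted p = 0.237) with scaling by library size alone. Lipid droplet genes as a list had 5 of 17 higher with DHA and 4 with erastin (median 0.05), near the 25.4% and 25.3% of all tested genes. Scaling by library size alone gave 10 and 2.

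Genes of lipid synthesis were mostly below vehicle with both compounds, and lower with erastin than with DHA for many of them. Of 26 cholesterol synthesis and uptake genes 17 were higher with DHA and 2 with erastin (median 0.36), and in 17 of the 26 the vehicle lay over both treatments. LSS, lanosterol synthase, was at 266 to 285 CPM with vehicle, 184, 157 and 180.0 with DHA and 116, 126 and 119.7 with erastin (log2 difference 0.52, SE 0.06, edgeR adjusted p = 2e-10). HMGCS1, which makes the first committed precursor, was barely apart, at 60.8, 60.2 and 66.5 CPM with DHA and 53.1, 56.2 and 54.1 with erastin (log2 difference 0.20, SE 0.07, edgeR adjusted p = 0.022), a call lost without DHA replicate 3 (adjusted p = 0.117), erastin replicate 1 (0.0749) or erastin replicate 3 (0.054), with DESeq2 (0.0772), without a filter (0.0577) and against a 1.2-fold difference (0.84).

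Fatty acid synthesis and desaturation had 11 of 20 genes higher with DHA and 5 with erastin (median 0.19). SCD, the desaturase that makes monounsaturated fatty acids, was at 997 to 1089 CPM with vehicle, 395, 406 and 411 with DHA and 318, 329 and 335 with erastin (log2 difference 0.30, SE 0.05, edgeR adjusted p = 1.6e-06). The desaturases on the route to DHA itself were also lower with erastin. FADS2 was at 391 to 392 CPM with vehicle, 241, 228 and 241 with DHA and 129.5, 147 and 158 with erastin (log2 difference 0.70, SE 0.06, edgeR adjusted p = 5.3e-15), and FADS1 differed by 0.49 (SE 0.06, edgeR adjusted p = 9.9e-11). Regulators went against these desaturases. INSIG1, which holds SREBP in the endoplasmic reticulum and is its target (ENSG00000186480.13, chr7:155297776-155310235), was at 114, 116 and 125 CPM with vehicle, 47.7, 47.9 and 50.8 with DHA and 108, 111 and 102 with erastin, a difference of −1.13 (SE 0.07, edgeR adjusted p = 8.7e-21). SREBF1, which codes for SREBP1, was at 226 to 263 CPM with vehicle, 106, 111 and 90.9 with DHA and 142, 136 and 129.9 with erastin (log2 difference −0.40, SE 0.07, edgeR adjusted p = 6.6e-07). ABCA1, the sterol exporter driven by the liver X receptor, was at 49.7 to 58.5 CPM with vehicle, 21.1, 30.3 and 20.2 with DHA and 66.8, 53 and 61.6 with erastin (log2 difference −1.31, SE 0.12, edgeR adjusted p = 4e-09). Thus INSIG1, SREBF1 and ABCA1 were lowest with DHA, where LSS, SCD, FADS1 and FADS2 were lowest with erastin. The list of liver X receptor targets and sterol efflux had 4 of 10 higher with erastin and 1 with DHA (median −0.2).

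Above a mean level of 5 CPM, the largest difference on the DHA side belonged to an overlapping pair on chromosome 20. SLCO4A1-AS1 (chr20:62663019-62666724, minus strand) was at 26.5, 28.4 and 28.2 CPM with DHA and 3.55, 3.53 and 4.15 with erastin (log2 difference 2.88, SE 0.15, edgeR adjusted p = 1.4e-24). SLCO4A1, an organic anion carrier on the opposite strand (chr20:62642445-62685785), was at 89.6, 78.5 and 78.5 CPM with DHA and 13.9, 12.9 and 14.7 with erastin (log2 difference 2.56, SE 0.09, edgeR adjusted p = 2.3e-31). Vehicle levels, at 48.8 to 53 CPM for the carrier and 16.1 to 19.4 for the antisense RNA, lay between the treatments in both. Without a stated strand setting of the counting, reads of the pair cannot be told apart.

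Matrix, signalling and hypoxia genes divided within their lists. Of 31 mesenchymal and matrix genes 13 were higher with DHA and 11 with erastin (median −0.01). Basement membrane and inhibitor genes were at vehicle level with DHA and low with erastin: LAMB1, a laminin chain, was at 131, 139 and 124 CPM with DHA and 56.8, 63.8 and 61.3 with erastin (log2 difference 1.12, SE 0.07, edgeR adjusted p = 3.4e-21), and TIMP3, an inhibitor of matrix proteases, at 1013, 934 and 984 CPM and 542, 561 and 624 (log2 difference 0.76, SE 0.05, edgeR adjusted p = 1.7e-18). THBS1, the matrix glycoprotein thrombospondin, was the reverse, at 7374 to 8199 CPM with vehicle, 6573, 6111 and 7116 with DHA and 10220.0, 10480.0 and 10970.0 with erastin (log2 difference −0.68, SE 0.05, edgeR adjusted p = 3.4e-17). TGF-beta and BMP genes had 7 of 17 each way (median 0.01). TGFB2, a TGF-beta ligand, was lower with DHA, at 330.4 to 358 CPM with vehicle, 141 to 149.9 with DHA and 271 to 302 with erastin (log2 difference −0.99, SE 0.06, edgeR adjusted p = 4.6e-22). SMAD6, an inhibitor of BMP signals, was lower with erastin, at 132 to 148, 72.2 to 87.3 and 40 to 48.4 CPM (log2 difference 0.86, SE 0.08, edgeR adjusted p = 7.8e-14).

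Hypoxia and glycolysis genes had 13 of 30 higher with DHA and 12 with erastin (median 0.09; 17 and 10 with scaling by library size alone). ADM, the peptide adrenomedullin, was at 36.1, 30.6 and 36.5 CPM with DHA and 225, 206 and 185 with erastin (log2 difference −2.58, SE 0.08, edgeR adjusted p = 2e-34), and HK2, hexokinase 2, at 133, 148 and 139 CPM and 336, 318 and 306 (log2 difference −1.19, SE 0.06, edgeR adjusted p = 1.5e-25). Both were at or near the vehicle level with DHA. Interferon response genes had 9 of 26 higher with DHA and 4 with erastin (median 0.17; 15 and 2 with scaling by library size alone). IRF1, a transcription factor of the response, was at 77.2, 77.3 and 75.2 CPM with DHA and 28.9, 29 and 35.1 with erastin (log2 difference 1.30, SE 0.08, edgeR adjusted p = 9.8e-21), and STAT2, of the interferon receptor's signal, was higher with erastin (log2 difference −0.54, SE 0.06, edgeR adjusted p = 2.4e-11). Insulin-like growth factor genes had 3 of 11 each way (median −0.02), near the 25.4% and 25.3% of all tested genes. IGFBP1, a binding protein, was at 36.1, 33.7 and 30.3 CPM with DHA and 16.3, 16.4 and 19.4 with erastin (log2 difference 0.93, SE 0.10, edgeR adjusted p = 3.5e-11).

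The same contrast in cells with the hairpin against IGFBP6 showed which of these differences belonged to both lines. In 12 treated libraries, edgeR's interaction test found that the difference between the compounds itself differed between the lines for 4891 of 16200 genes (30.2%), 2454 with a larger value in sh-LUC and 2437 with a smaller one. With scaling by library size alone the number was 1557, and without erastin replicate 3 of the sh-IGFBP6 cells, a shallow library of 609936 counts with 54.4% mitochondrial ribosomal RNA, it was 5012 of 16841 (29.8%). The lines carry different hairpins, and other differences between them cannot be told apart from that.

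For the heat shock genes given here, the difference was near 0 or of the opposite sign in the other line. HSPA1A and DNAJB1 were higher with DHA there, by 0.56 (SE 0.10) and 0.49 (SE 0.07), and HSP90AA1 differed by −0.11 (SE 0.08). HSPA6 was at 12.8, 11.6 and 9.38 CPM with DHA and 10.6, 9.2 and 7.43 with erastin in sh-IGFBP6 cells, a difference of 0.18 (SE 0.48) against −8.30 in sh-LUC (edgeR interaction −8.47, SE 0.66, adjusted p = 1.3e-05). HSPA1B reversed, at 612, 683 and 660.2 CPM with DHA and 251, 242 and 282 with erastin (1.38, SE 0.08; interaction −5.15, SE 0.11, edgeR adjusted p = 4e-49). HMOX1 was at 481, 507 and 482 CPM with DHA and 452, 489.9 and 572 with erastin there, a difference of 0.01 (SE 0.08; interaction −5.21, SE 0.12, edgeR adjusted p = 3.1e-40). In these genes the DHA libraries of sh-IGFBP6 cells were all above those of sh-LUC cells.

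System xc- and PTGS2 also changed sides. SLC7A11 was at 735, 749 and 682 CPM with DHA and 552, 498 and 520.1 with erastin in sh-IGFBP6 cells (0.46, SE 0.07; interaction −1.88, SE 0.09, edgeR adjusted p = 1.7e-45). PTGS2 was at 254, 268 and 229.6 CPM with DHA and 157, 139 and 152 with erastin (0.75, SE 0.08; interaction −4.02, SE 0.11, edgeR adjusted p = 9.2e-71). CHAC1, by contrast, was lower with DHA in both lines. In sh-IGFBP6 cells it was at 2.49, 3.83 and 2.08 CPM with DHA and 15.9, 7.45 and 7.43 with erastin. Its interaction of −0.27 (SE 0.33) was not called (edgeR adjusted p = 0.62), nor was it without erastin replicate 3 of those cells (−0.24, edgeR adjusted p = 0.69). The DHA levels of CHAC1 there rest on few reads, so an interaction could have been missed.

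Immediate early genes were not uniform across the lines. FOS in sh-IGFBP6 cells was at 66, 69.9 and 67.5 CPM with DHA and 396, 444 and 256 with erastin (−2.56, SE 0.09; interaction −2.44, SE 0.20, edgeR adjusted p = 2.7e-14), the same side with a smaller size. IER3 had an interaction of 0.03 (SE 0.09) that was not called (edgeR adjusted p = 0.83), and DUSP4 differed by 0.01 (SE 0.07) in sh-IGFBP6 cells (interaction 0.35, SE 0.09, edgeR adjusted p = 0.0019). Metallothionein MT2A differed alike, by −1.19 (SE 0.07) there and −1.09 here (interaction 0.10, SE 0.09, edgeR adjusted p = 0.46). The mitotic difference was small in sh-IGFBP6 cells: PLK1 was at 89.3, 91.2 and 93.3 CPM with DHA and 82.9, 80.2 and 52 with erastin (0.18, SE 0.08; interaction 1.72, SE 0.12, edgeR adjusted p = 2.6e-30), and TOP2A differed by 0.03 (SE 0.07; interaction 1.25, SE 0.09, edgeR adjusted p = 2e-27). Histone H2AC4 kept its direction at 71.5, 74.2 and 81.8 CPM with DHA and 24, 18.6 and 7.43 with erastin (1.82, SE 0.11; interaction 0.60, SE 0.15, edgeR adjusted p = 0.00045). Among lipid genes, ANGPTL4 was further apart in sh-IGFBP6 cells, at 79.3, 65.8 and 77.4 CPM with DHA and 14.7, 9.63 and 33.4 with erastin (2.47, SE 0.13; interaction −1.35, SE 0.15, edgeR adjusted p = 7.7e-14). SCD turned over, from 0.30 in sh-LUC to −0.68 (SE 0.07) in sh-IGFBP6 cells (interaction 0.98, SE 0.09, edgeR adjusted p = 1e-16), and CPT1A had an interaction of −0.14 (SE 0.10) that was not called (edgeR adjusted p = 0.31). The interactions of SCD and TOP2A were not called with scaling by library size alone, a setting in which the library with 54.4% mitochondrial ribosomal RNA stays in.

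**Figure D5:**
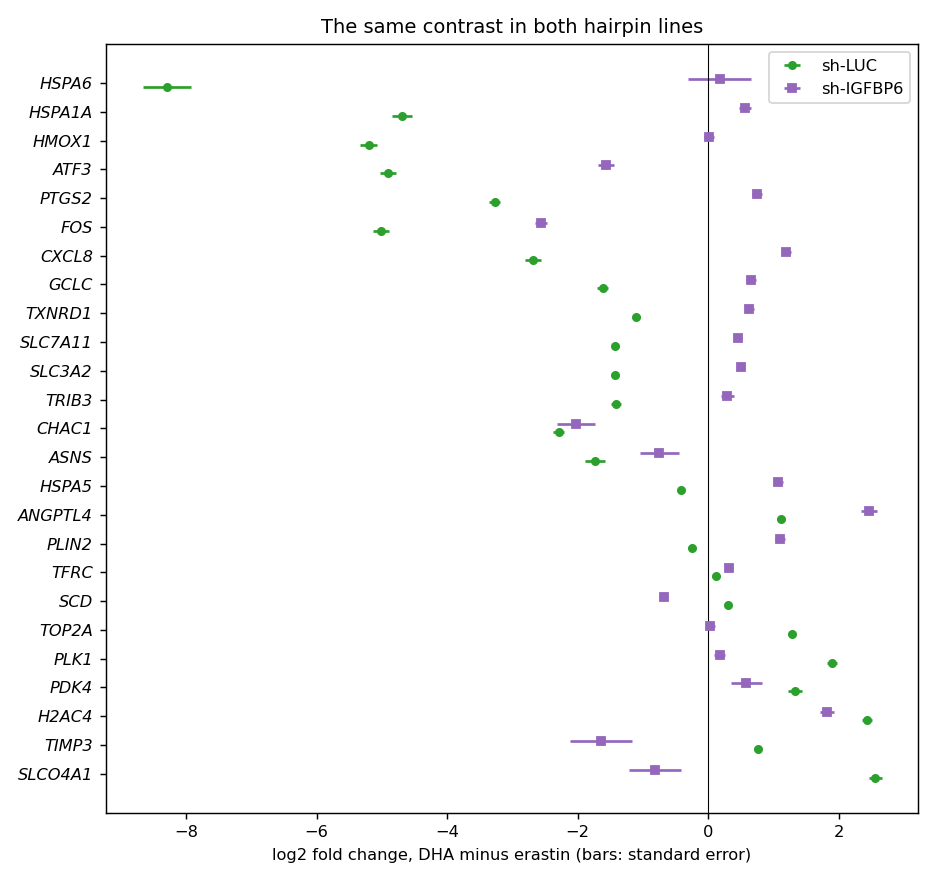
Log2 difference DHA minus erastin with its standard error (x axis) of 25 genes (y axis) in sh-LUC cells (green circles) and sh-IGFBP6 cells (purple squares). HSPA6, HSPA1A and HMOX1 lie between −4.69 and −8.30 in sh-LUC and between 0.01 and 0.56 in sh-IGFBP6 cells. CHAC1 lies at −2.29 and −2.02, the latter with few DHA reads.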

How the data were processed

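The submitters' processing notes name cutadapt 4.4 for trimming, STAR 2.7.7a and GRCh38 for alignment, and featureCounts, with no version, for counting. For the annotation release and the strand setting no source used here gives a value. The authors deposited whole-number counts per gene, unnormalized, for all 18 libraries. From them, genes passing edgeR's filterByExpr (minimum count 10, total 15) in the 6 libraries compared were scaled by TMM and tested with the robust quasi-likelihood test of edgeR 4.0.16 in R 4.3.3, with Benjamini-Hochberg adjustment over 15161 genes and a call at 0.05. Standard errors are the log2 difference over the square root of F, or, where F was small, a Wald standard error from the fit. CPM are counts over the TMM-scaled library size. Interactions used the 12 treated libraries of both lines. A line with no gene (at most 0.01082% of a library) was left out. Symbols came from a name table (42022 of 60709 genes) and GENCODE 29 (16483), coordinates from GENCODE 29 on GRCh38, and promoters from RefSeq; SLC7A11 and HMOX1 had none in that table.

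The comparison, the 38 gene lists (861 genes) and the 35 key genes were chosen with earlier results of these data known, so the lists are described by counts and medians without a test. Genes were named if they were key genes, among the 12 largest differences each way with at least 5 CPM, the 4 smallest p of a list with up to 2 members against its majority, or the 5 smallest p each way of the interaction; members named outside this rule (HSF1, BUB3, NUSAP1, H4C9, VIM, CHORDC1 and HSPA8) were chosen after their values were seen. Counts were simulated with the depth and spread of this comparison for 15161 genes, 50 of them changed at each fold. The test called 42% of genes changed 1.25-fold, 90% of those changed 2-fold and 11 of 14961 unchanged genes. Far fewer genes changed there than the 50.7% called in the data, so these rates may not carry over. Depth was 5666029 to 7977429 counts per library compared, and the common biological coefficient of variation was 4.81%. Alternatives were library size scaling, RLE factors, no filter, DESeq2 1.42.0, all 18 libraries, a replicate block, a non-robust fit, a test against 1.2-fold and each replicate left out; leaving out mitochondrial genes was added after seeing the data. Some results are not reported here.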

Additional observations from a re-analysis of the deposited data

Results flagged for a closer look

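Each value here was flagged because the difference between the compounds itself differed between the lines by edgeR's interaction test, given as sh-LUC minus sh-IGFBP6 on the log2 scale; 4891 genes passed in all. On the stress side the interactions were −5.25 for HSPA1A, −5.15 for HSPA1B, −2.75 for DNAJB1, −3.70 for ZFAND2A, an AN1 zinc finger gene that responds to stress, −1.49 for HSPA5, −5.21 for HMOX1, −2.44 for FOS and −1.18 for CDKN1A. ZFAND2A stood at 15.6, 12.4 and 15.6 CPM with DHA and 69.1, 78.5 and 62.4 with erastin in sh-LUC cells, against 46.7, 44.5 and 53.2 and 15.7, 20.1 and 26 in sh-IGFBP6 cells, so the order of the compounds was opposite in the lines. In the inflammatory genes they were −3.88 for CXCL8 and −4.02 for PTGS2; CXCL8 stood at 182, 206 and 188 CPM with DHA and 87, 82.6 and 66.9 with erastin in sh-IGFBP6 cells, the reverse of sh-LUC.

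Amino acid and redox genes had interactions of −1.88 for SLC7A11, −1.92 for SLC3A2, −0.65 for ATF4, −1.41 for DDIT3, −0.98 for ASNS, −1.71 for TRIB3, −1.74 for TXNRD1, −1.35 for GCLM, −1.58 for NQO1, −1.01 for FTH1 and −0.46 for AIFM2. DDIT3 was higher with DHA in sh-IGFBP6 cells, at 49.8, 56.8 and 54.5 CPM against 26.4, 29.3 and 52 with erastin. Lipid genes had −0.48 for INSIG1, 0.98 for SCD, 0.85 for FADS2, −1.36 for PLIN2, −1.35 for ANGPTL4, 0.74 for PDK4 and 1.01 for ABCA1. Cell cycle genes had 1.25 for TOP2A, 1.72 for PLK1 and 1.73 for KIF20A. Among the smallest p of the interaction were also CAVIN2 (2.51), a caveolar coat gene, TRERF1 (1.85) and ZCCHC24 (2.23). With scaling by library size alone, which leaves the sh-IGFBP6 erastin library with 54.4% mitochondrial ribosomal RNA uncorrected, the interactions of AIFM2, ASNS, ATF4, FADS2, INSIG1, PDK4, SCD and TOP2A were not called.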

How the results depend on the processing

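Of 3116 values of the 208 named genes under the alternatives, 3037 kept their direction and their side of the threshold, 64 lost a call, 10 gained one and 5 turned sign. Scaling by library size alone gave 5987 genes higher with DHA, 2285 higher with erastin and 885 at least 2-fold higher with DHA. It left 1557 differences between the lines, 1005 larger and 552 smaller in sh-LUC, with the sh-IGFBP6 erastin library of 54.4% mitochondrial ribosomal RNA (TMM factor 0.4414, which this setting omits) included. Without a filter 1279 genes were at least 2-fold higher with erastin. Against a difference of 1.2-fold, 4221 genes passed, 2114 higher with DHA and 2107 with erastin. Leaving out 1 library at a time gave 6786 to 7553 calls, and DESeq2 gave 6038. The cause of these shifts was not tested, beyond the higher bar of the 1.2-fold test and the additional low genes without a filter. Signs turned for values not called: PTPRC (−0.08) was 0.0818 with library size alone and −0.429 to 0.379 over the libraries left out, CAVIN2 (−0.13) was 0.0331 with library size alone, PDGFRB was −0.123 to 0.173 over the libraries left out, and the line differences of HMGCS1 and MT2A were −0.0168 and −0.0308 with library size alone. The correlations of deviations between libraries of the same number were −0.00808, 0.0313 and 0.0767. No pairing by number was seen, but 3 libraries per group cannot exclude one. With the replicate block 7933 genes were called, 7675 of them shared. Depth limits genes with few reads, such as ARC and SEMA4A with DHA and, less so, ASNS.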

Other observations

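Genes outside the lists also set the compounds apart. ZCCHC24, a zinc finger gene, was at 113 to 125 CPM with vehicle, 123, 118 and 114 with DHA and 32.6, 38.5 and 33.8 with erastin (log2 difference 1.75, SE 0.07, edgeR adjusted p = 4.2e-28). RASSF4, a Ras association domain gene, was at 17.1, 14.9 and 15.1 CPM with DHA and 3.26, 3.8 and 4.15 with erastin (log2 difference 2.05, SE 0.17, edgeR adjusted p = 1.2e-15), and TRIM6, a ubiquitin ligase, at 10.9, 11.9 and 10.2 CPM and 2.96, 1.9 and 1.81 (log2 difference 2.32, SE 0.21, edgeR adjusted p = 6.3e-14). In all 3 the DHA libraries were within or next to the vehicle range and the erastin libraries under it. In sh-IGFBP6 cells RASSF4 and TRIM6 were near the limit of detection, at 0.311 to 2.35 and 0.311 to 1.3 CPM with DHA.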
